A study of Homo sapiens with 9 samples.

Results

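The mRNA of inflammatory signals, not their secretion, was measured in MDA-MB-231, a human triple-negative breast cancer cell line. This was done after knockdown of ZIP7, the zinc transporter of the endoplasmic reticulum encoded by SLC39A7. The genes are 10 cytokines and chemokines that this line makes, taken by name: IL6, IL11, LIF, IL1A, IL1B, CXCL1, CXCL2, CXCL3, CXCL8 and CCL20. They are 10 of the 58395 gene identifiers in the deposited counts, and all 10 were among the 16761 genes that passed the low-count filter and were tested. The cells were transfected with a nontargeting control siRNA (siNC), with a first siRNA against ZIP7 (siZIP7_1) or with a second one (siZIP7_2). Total RNA was taken 96 h later for 3 replicate libraries of each group, 9 in all. All groups were grown in DMEM with serum, and the labels name no treatment other than the siRNA. Per the study's methods the siRNAs against ZIP7 are different reagents from different suppliers, Horizon for siZIP7_1 and Qiagen for siZIP7_2. The labels do not say whether the replicates were separate transfections, so the p-values measure the spread between these libraries, which may be technical.

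NF-kB is a family of transcription factors that inhibitor proteins of the I-kappa-B family hold in the cytoplasm. Signals from the receptors of TNF or IL-1 lead the I-kappa-B kinases to mark these inhibitors for destruction, after which NF-kB enters the nucleus and turns on cytokines, chemokines and its own inhibitors. IL6, IL11 and LIF are cytokines of the IL-6 family, which signal through the shared receptor chain gp130 to STAT3. IL1A and IL1B are the agonists of the IL-1 receptor. CXCL1, CXCL2, CXCL3 and CXCL8 attract neutrophils through CXCR2, CXCL8 also through CXCR1, and CCL20 attracts cells that carry CCR6. Triple-negative breast cancer lines are known to secrete several of them without added stimulus.

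The windows just upstream of these genes show the letters that NF-kB and AP-1, another stress-responsive transcription factor, are known to read. RefSeq promoter windows of GRCh38.p14, from 250 bases before to 50 bases after the annotated start, matched 9 of the 10 genes by symbol, and LIF had no entry. Of each, the 150 bases that end just before the start are printed 5′ to 3′ on the gene's own strand. Capitals mark a match to the NF-kB consensus, to the word GGAATTTCC or to the AP-1 word TGANTCA. GGAATTTCC, called the core word here, lies in some matches to the consensus but not in all. The first 4 windows are shown because CXCL1, CXCL2, CXCL3 and CXCL8 share the core word, and the next because IL6 and CCL20 hold the consensus alone. IL11 is shown for its AP-1 word and IL1B as the window with no match.
CXCL1 (chr4:73869243-73869392, plus strand): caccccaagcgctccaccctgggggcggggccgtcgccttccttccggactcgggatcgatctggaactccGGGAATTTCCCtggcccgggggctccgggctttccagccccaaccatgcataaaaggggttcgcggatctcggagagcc
CXCL2 (chr4:74099196-74099345, minus strand): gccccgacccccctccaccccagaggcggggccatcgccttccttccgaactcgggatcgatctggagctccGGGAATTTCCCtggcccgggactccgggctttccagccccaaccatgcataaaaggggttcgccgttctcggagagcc
CXCL3 (chr4:74038690-74038839, minus strand): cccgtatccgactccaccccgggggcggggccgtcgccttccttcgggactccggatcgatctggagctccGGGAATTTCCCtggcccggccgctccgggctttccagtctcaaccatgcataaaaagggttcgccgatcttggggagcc
CXCL8 (chr4:73740419-73740568, plus strand): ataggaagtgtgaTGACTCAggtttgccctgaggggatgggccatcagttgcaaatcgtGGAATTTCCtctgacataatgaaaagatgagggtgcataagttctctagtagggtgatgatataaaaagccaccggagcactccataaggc
IL6 (chr7:22727050-22727199, plus strand): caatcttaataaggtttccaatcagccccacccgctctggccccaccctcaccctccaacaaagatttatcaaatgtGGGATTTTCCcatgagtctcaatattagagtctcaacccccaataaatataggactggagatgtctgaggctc
CCL20 (chr2:227813692-227813841, plus strand): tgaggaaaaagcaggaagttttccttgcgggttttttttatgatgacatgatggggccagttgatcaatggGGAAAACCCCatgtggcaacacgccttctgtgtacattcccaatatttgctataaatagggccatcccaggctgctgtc
IL11 (chr19:55370464-55370613, minus strand): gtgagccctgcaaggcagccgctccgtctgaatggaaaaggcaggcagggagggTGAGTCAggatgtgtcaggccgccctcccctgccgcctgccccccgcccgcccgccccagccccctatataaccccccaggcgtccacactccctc
IL1B (chr2:112836780-112836929, minus strand): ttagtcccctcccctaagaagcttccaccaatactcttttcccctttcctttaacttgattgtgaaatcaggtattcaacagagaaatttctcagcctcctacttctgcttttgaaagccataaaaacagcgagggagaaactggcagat

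Both strands of the whole windows were searched. The NF-kB consensus was in 5 of the 9 windows (IL6, CXCL1, CXCL2, CXCL3 and CCL20), and in 5.72% of all 27305 promoter windows of that length. The core word GGAATTTCC was in 4 of the 9 (CXCL1, CXCL2, CXCL3 and CXCL8), against 0.472% of all windows. TGANTCA was in 3 of the 9 (IL11, IL1A and CXCL8), against 7.76%. In CXCL1, CXCL2 and CXCL3 the core word lies inside 2 overlapping consensus matches on opposite strands, so these are not separate finds, and the 3 genes are close paralogs. The consensus began at -79 from the start in CXCL1 and CXCL3, at -78 in CXCL2 and at -73 in IL6. The match in CCL20 began at -79 on the opposite strand, and the core word of CXCL8 at -91. IL1A, for which the first of its listed starts was used, held TGANTCA at -12 and again at 38 bases past the start, and IL11 held it at -96. A match is a description of the letters, not a measured binding site, and a window without one says only that these letters are not in it.

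**Figure D1:**
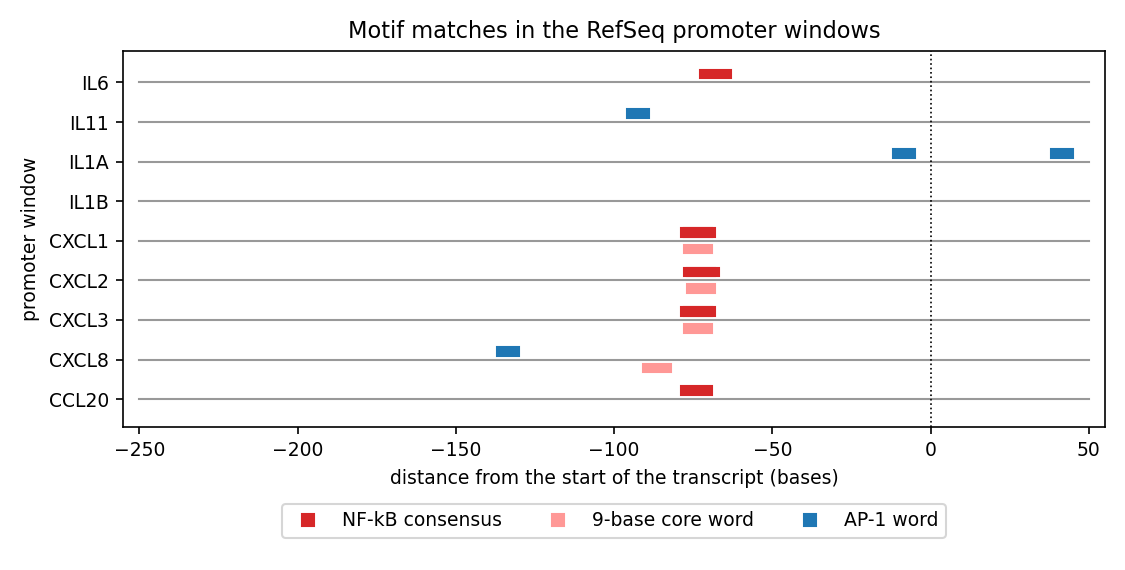
Positions of motif matches in the promoter windows of 9 of the genes, plotted as distance from the annotated start in bases (x axis) with 1 row per gene (y axis). Marks stand for the NF-kB consensus, the 9-base core word GGAATTTCC and the AP-1 word. The matches of CXCL1, CXCL2, CXCL3, IL6 and CCL20 lie between -79 and -64, and IL1B has none.

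The 3′ untranslated regions of all 10 genes held the word TATTTAT, the DNA form of the core of AU-rich elements, which are known to shorten the life of cytokine mRNAs. The longest 3′ untranslated region annotated for each gene in GENCODE 29 was searched on the transcript strand only, and 31.1% of 19128 genes held the word. At least 3 copies were found in 9 of the 10 genes, against 6.01% of all genes, whose regions had a median length of 1102 bases. CXCL2 had 8 copies and IL11 had 7, while CCL20 had 1. The regions differ in length and no allowance was made for this.

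The depth was similar between groups, with 24153785 to 30454419 reads counted on genes per library. Levels are given as CPM after TMM scaling, which sets each library to a common size, and a count of 3, used as the floor for a detected gene, was at most 0.124 CPM before scaling, a limit that covers counting error only. SLC39A7 was between 320.7 and 343.1 CPM in siNC, between 32.9 and 38.6 CPM in siZIP7_1 and between 17.6 and 20.5 CPM in siZIP7_2. The transcript was therefore low in every library labelled as a knockdown, and lower in siZIP7_2 than in siZIP7_1 (log2 difference -0.89, SE 0.066, adjusted p = 4.89e-13). The siRNA used and the level of SLC39A7 left by it cannot be told apart between these groups. Reads that fell outside annotated genes made up 7.43% to 8.28% in siNC, 7.80% to 9.62% in siZIP7_1 and 9.99% to 11.5% in siZIP7_2, and their part in the results was not tested.

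The labelled cell line was checked against its markers. The estrogen receptor gene ESR1 was at most 0.582 CPM and the progesterone receptor gene PGR at most 0.0728 CPM in any library. ERBB2, the HER2 gene, was detected at 56.6 to 91.5 CPM. The mesenchymal and basal-type genes VIM, CD44 and EGFR were each at 438.1 CPM or more in every library. Of 5 leukocyte markers, CD14 moved with the cytokines, from 1.29 to 2.40 CPM in siNC to 0.515 to 0.583 CPM in siZIP7_1 and 8.72 to 11.9 CPM in siZIP7_2. The other markers (PTPRC, CD3E, LYZ and ITGAM) summed to 1.32 to 1.67 CPM in siNC, 0.847 to 1.06 CPM in siZIP7_1 and 0.4998 to 1.09 CPM in siZIP7_2, and all 5 together to 2.88 to 4.07, 1.38 to 1.64 and 9.80 to 12.7 CPM. PTPRC, which encodes the pan-leukocyte protein CD45, was at most 1.02 CPM, and the T-cell gene CD3E was at or near 0 throughout.

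With siZIP7_1 all 10 genes fell, and with siZIP7_2 all 10 rose. The share of all tested genes past the threshold in the same direction was 35.9% for a fall with siZIP7_1 and 38.5% for a rise with siZIP7_2. Changes of this size were less common among all genes. At least a 2-fold fall with siZIP7_1 was seen for 10 of the 10, against 9.91% of the genes tested, and at least an 8-fold rise with siZIP7_2 for 9 of the 10, against 2.65%. The fold cut-offs differ between the siRNAs and were chosen with the values known, so these shares are a description. At least an 8-fold fall with siZIP7_1 was seen for 3 of the 10. The 1st percentile of the log2 fold change over all genes was -3.07 in that comparison. The median log2 fold change over the 10 genes was -2.35 with siZIP7_1 and 4.39 with siZIP7_2, beside -0.007 and -0.002 over all genes tested. Both comparisons use the same siNC libraries. Tested directly, all 10 genes were higher in siZIP7_2 than in siZIP7_1 (38.1% of all genes tested were), with a median log2 difference of 6.92. That difference was at least 8-fold for 9 of the 10, against 3.59%. In each of the 3 comparisons the libraries of the groups did not overlap for any of the 10 genes, in the direction given, and the same held for 36.5%, 38.9% and 38.5% of all genes.

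**Figure D2:**
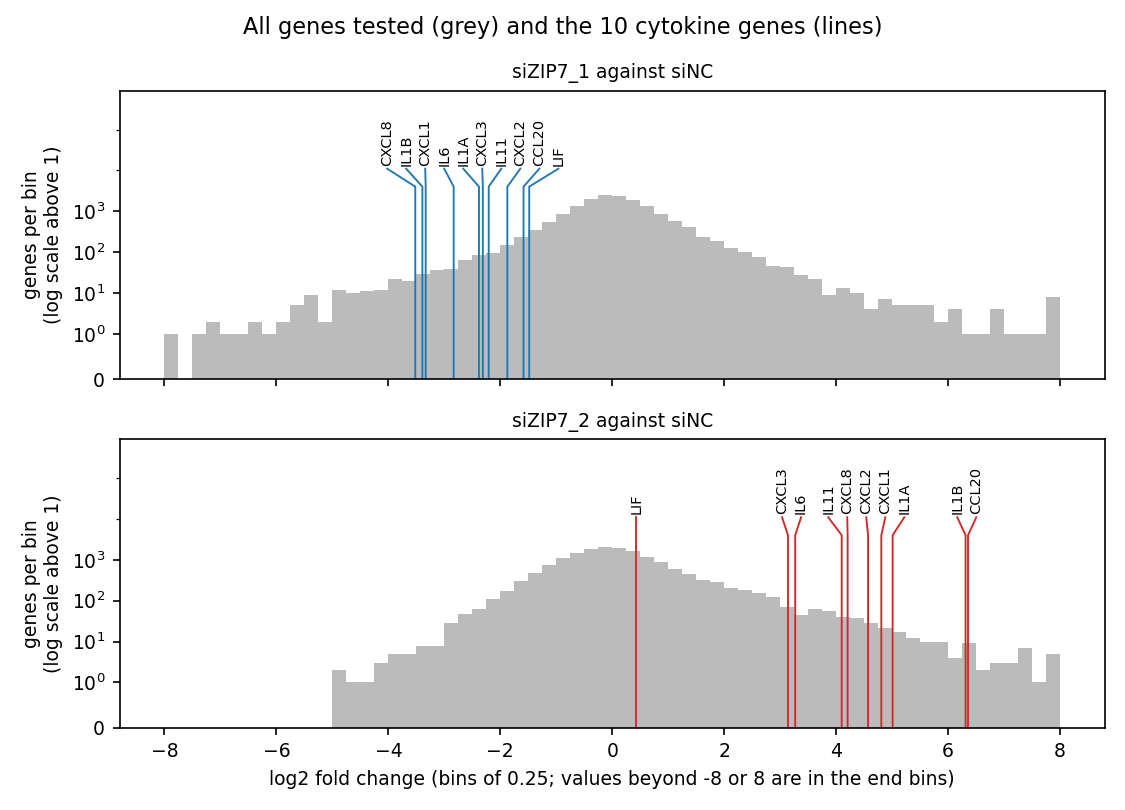
Number of genes (y axis, log scale above 1) in bins of the log2 fold change of 0.25 (x axis) over the 16761 genes tested, for siZIP7_1 (top) and siZIP7_2 (bottom), each against siNC. Lines mark the 10 genes, which lie at -3.52 to -1.48 with siZIP7_1 and at 0.43 to 6.36 with siZIP7_2, and values beyond the axis are in the end bins.

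In sum the 10 genes took up 462.4 to 485.9 CPM in siNC, 101.2 to 105.1 CPM in siZIP7_1 and 6577 to 7816 CPM in siZIP7_2. As a share of all reads on genes this was 0.0446% to 0.0474%, 0.0104% to 0.0110% and 0.657% to 0.780%. The make-up of that sum differed too. LIF gave 35.3% to 37.5% of these reads in siNC, 60.4% to 61.3% in siZIP7_1 and 3.12% to 3.55% in siZIP7_2, while IL1B gave 3.99% to 4.49%, 1.73% to 2.12% and 22.2% to 23.7%. These are shares of reads and so also depend on transcript length. In these bulk libraries fewer cells making a transcript and less of it per cell cannot be told apart.

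The IL-6 family members IL6 and IL11 changed by large factors in both directions, and LIF rose the least of the 10 genes. IL6 (ENSG00000136244, GRCh38 chr7:22725884-22732002), the main inducer of the acute phase response, was at 11.8, 10.3 and 10.8 CPM in siNC, at 2.15, 0.996 and 1.51 CPM in siZIP7_1 and at 116.8, 98.0 and 103.4 CPM in siZIP7_2. The 3 groups were apart, although the siZIP7_1 libraries differed by more than 2-fold among themselves. The log2 fold change was -2.83 (SE 0.15, adjusted p = 1.81e-16) with siZIP7_1 and 3.27 (SE 0.084, adjusted p = 1.45e-23) with siZIP7_2. All adjusted p-values come from the quasi-likelihood test of edgeR, corrected over all genes tested by the Benjamini-Hochberg method. Of its exonic length 20.7% overlaps AC073072.1 and STEAP1B, and the strand setting of the counting was not given. AC073072.1 itself was at no more than 1.40 CPM in any library.

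IL11 (ENSG00000095752, chr19:55364389-55370463), a cytokine tied to breast cancer bone metastasis, was at 78.9, 92.6 and 72.0 CPM in siNC. It was at 17.0, 17.3 and 18.3 CPM in siZIP7_1 and at 1486, 1273 and 1410 CPM in siZIP7_2. It was thus 4.62-fold lower with siZIP7_1 (log2 fold change -2.21, SE 0.078) and 17.2-fold higher with siZIP7_2 (4.10, SE 0.072). LIF (ENSG00000128342, chr22:30240447-30246851), leukemia inhibitory factor, was at 179.9, 173.3 and 171.4 CPM in siNC, at 61.7, 62.4 and 63.5 CPM in siZIP7_1 and at 252.6, 233.4 and 222.0 CPM in siZIP7_2. Its fall with siZIP7_1 was 2.80-fold (log2 fold change -1.48, SE 0.051). Its rise with siZIP7_2 was 1.35-fold (0.43, SE 0.048, adjusted p = 3.3e-09), the only rise of the 10 under 8-fold. LIF-AS1 and AC004264.1 overlap 6.73% of the LIF exonic length, and neither was above 0.165 CPM in any library.

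The IL-1 genes also fell with siZIP7_1 and rose with siZIP7_2, with larger log2 fold changes in siZIP7_2 than the IL-6 family had. IL1B (ENSG00000125538, chr2:112829751-112836903), whose product is made as a precursor that caspase-1 cleaves, was at 21.3, 18.4 and 21.8 CPM in siNC. In siZIP7_1 it was at 1.89, 2.16 and 1.82 CPM, and in siZIP7_2 at 1736, 1559 and 1615 CPM. The log2 fold change was -3.39 (SE 0.11, adjusted p = 1.18e-21) with siZIP7_1 and 6.31 (SE 0.068, adjusted p = 5.35e-32) with siZIP7_2. Set against each other the siZIP7 groups differed by a log2 value of 9.71 (SE 0.088), and only 3 of the 16761 genes had a higher one. IL1A (ENSG00000115008, chr2:112773915-112784590), an alarmin that is active as a precursor, was at 3.12, 2.75 and 3.49 CPM in siNC. It was at 0.619, 0.447 and 0.722 CPM in siZIP7_1 and at 105.1, 97.5 and 101.4 CPM in siZIP7_2, which gave log2 fold changes of -2.38 (SE 0.18) and 5.01 (SE 0.081).

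Among the neutrophil chemokines CXCL8 (ENSG00000169429, chr4:73740506-73743716), also known as IL-8, had the highest level per kb of exon in every group. It was at 151.5, 132.6 and 170.8 CPM in siNC, at 12.2, 13.2 and 14.3 CPM in siZIP7_1 and at 3179, 2459 and 2767 CPM in siZIP7_2. The fall of 11.5-fold with siZIP7_1 (log2 fold change -3.52, SE 0.094, adjusted p = 3.26e-23) was the deepest of the 10 genes. With siZIP7_2 it was 18.5-fold higher (4.21, SE 0.083, adjusted p = 4.79e-26). CXCL1 (ENSG00000163739, chr4:73869393-73871242) was at 22.5, 20.6 and 22.9 CPM in siNC, at 2.48, 2.06 and 2.04 CPM in siZIP7_1 and at 653.1, 580.5 and 618.3 CPM in siZIP7_2. Its log2 fold changes were -3.33 (SE 0.098) and 4.81 (SE 0.061).

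CXCL2 (ENSG00000081041, chr4:74097035-74099293) was at 7.62, 6.70 and 7.05 CPM in siNC, at 1.89, 1.99 and 1.95 CPM in siZIP7_1 and at 172.3, 168.4 and 168.9 CPM in siZIP7_2. CXCL3 (ENSG00000163734, chr4:74036589-74038807) was at 4.90, 4.34 and 4.59 CPM, then at 0.983, 0.927 and 0.878 CPM, and then at 41.2, 42.3 and 38.8 CPM in the same order of groups. Both thus fell and rose as CXCL1 did, with log2 fold changes of -1.87 (SE 0.11) and 4.57 (SE 0.062) for CXCL2 and of -2.31 (SE 0.15) and 3.14 (SE 0.082) for CXCL3. CXCL1, CXCL2 and CXCL3 share sequence, and of their windows of 50 bases along the transcripts 4.81%, 12.5% and 6.01% also occur in another of the 3. Such windows were 0% for CXCL8, IL1A, IL1B and CCL20. No library lists reads aligned to several places, and how such reads were handled was not given.

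CCL20 (ENSG00000115009, chr2:227805739-227817564) had the lowest level per kb of the 10 genes in siNC, with CPM of 0.835, 0.730 and 0.890. In siZIP7_1 it was at 0.255, 0.447 and 0.125 CPM, which stands for 7, 13 and 4 reads, and in siZIP7_2 at 73.7, 65.7 and 64.4 CPM. The rise with siZIP7_2 was 82.0-fold (log2 fold change 6.36, SE 0.12, adjusted p = 1.36e-26) and the largest of the 10. The fall with siZIP7_1 was less sure (log2 fold change -1.59, SE 0.33, adjusted p = 0.000122), and over the alternative settings it lay between -2.12 and -1.21.

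**Figure D3:**
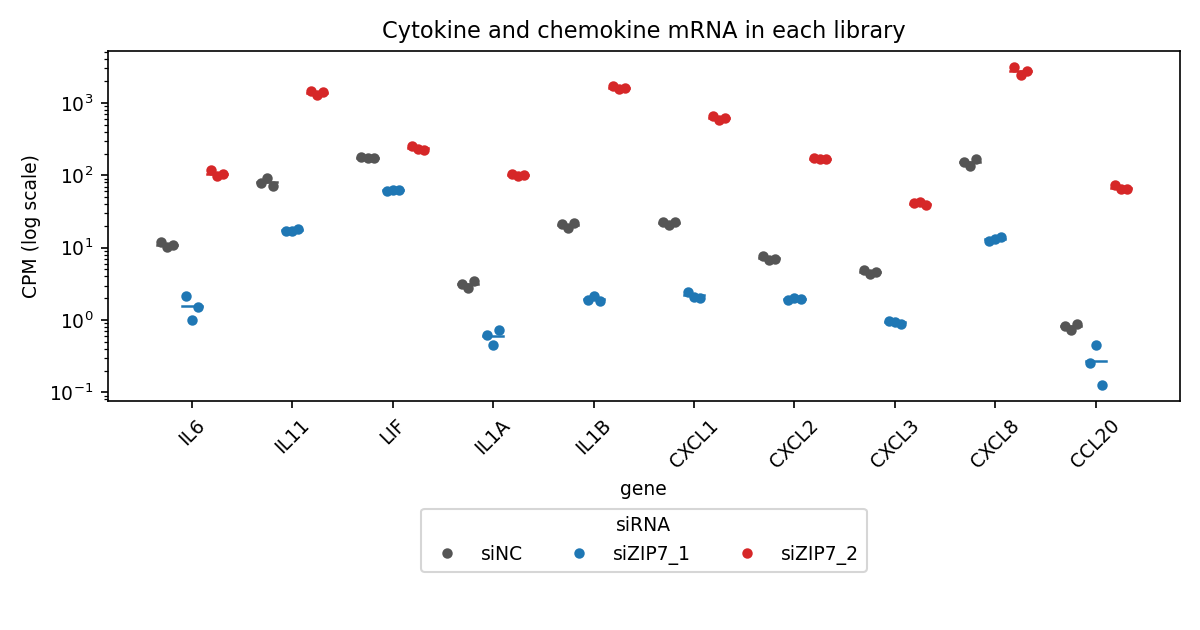
CPM of each of the 10 genes (y axis, log scale) in the 3 libraries of siNC, siZIP7_1 and siZIP7_2 (x axis), 1 point per library, with a line at each group's mean. For every gene the siZIP7_1 points lie below and the siZIP7_2 points above those of siNC, and for LIF the rise is 1.35-fold. Of all genes tested, 36.5% lay wholly below siNC with siZIP7_1 and 38.9% wholly above it with siZIP7_2.

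**Figure D4:**
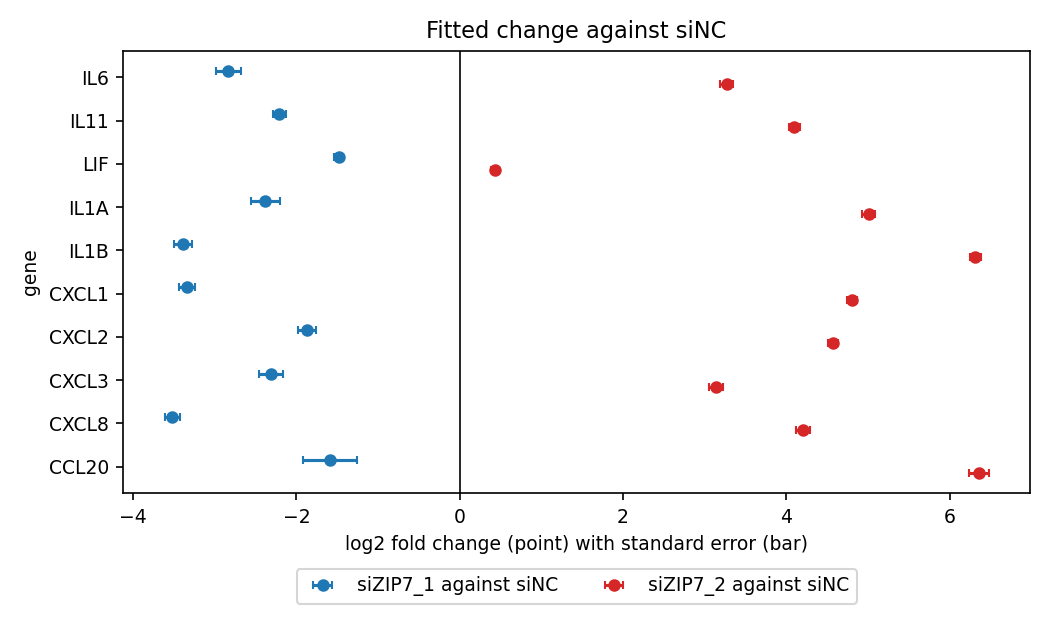
Log2 fold changes of the 10 genes with siZIP7_1 and with siZIP7_2, each against siNC (x axis), with 1 row per gene and bars of 1 SE to each side. The values run from -3.52 (CXCL8) to -1.48 (LIF) with siZIP7_1 and from 0.43 (LIF) to 6.36 (CCL20) with siZIP7_2.

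Scaled to the length of its exons, the order of the genes differed between groups. In siNC CXCL8 stood first at 66.7 ± 8.40 CPM per kb (SD, n = 3), followed by LIF at 44.1 ± 1.11, IL11 at 30.4 ± 3.93 and CXCL1 at 17.0 ± 0.960. The libraries of IL6 (5.30 ± 0.367) and CXCL2 (4.75 ± 0.311) overlapped, and all other neighbours in that order were apart. In siZIP7_1 LIF led at 15.8 ± 0.222 CPM per kb, ahead of IL11 at 6.56 ± 0.253 and CXCL8 at 5.81 ± 0.457, and IL6 with IL1B and IL1A with CCL20 overlapped. In siZIP7_2 CXCL8 led at 1232 ± 158.8 CPM per kb. IL1B at 528.7 ± 29.3, IL11 at 520.3 ± 40.4 and CXCL1 at 476.3 ± 28.0 overlapped with their neighbours, as did LIF, IL6, IL1A and CCL20 between 42.6 and 59.5. CXCL3 was last at 18.4 ± 0.818 CPM per kb. By its mean, IL1B thus came after CXCL1 in siNC and directly after CXCL8 in siZIP7_2, where its libraries overlapped those of IL11.

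The genes whose pattern was most like that of CXCL8 were CSF2, IER3, PLAT, LFNG and SAA2, with Pearson r of log2(CPM + 1) over the 9 libraries from 0.9987 to 0.9993. The libraries fall into 3 groups, so this describes a likeness of group means and no p is given. CSF2, the cytokine GM-CSF, was at 28.3 to 34.7 CPM in siNC, 3.39 to 3.92 CPM in siZIP7_1 and 394.1 to 455.4 CPM in siZIP7_2. IER3, an NF-kB-induced survival gene, was at 407.4 to 416.5, 67.6 to 70.8 and 3416 to 3444 CPM in the same groups. For the other 9 genes r with CXCL8 was between 0.9264 for CCL20 and 0.9958 for IL6. Ranked by r, these 9 genes stood between place 51 (IL6) and place 1285 (CCL20), with CXCL1 at 53 and LIF at 1189. Many genes outside the set were therefore more like CXCL8 than LIF or CCL20 was, and an r of this size does not single out the set.

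Other cytokines and chemokines moved in both directions with each siRNA. For these and the following lists, 34.8% of all genes tested rose and 35.9% fell with siZIP7_1, and 38.5% rose and 39.3% fell with siZIP7_2, and the medians over all genes were -0.007 and -0.002. Of 30 listed, 23 were tested. With siZIP7_1, 4 rose and 13 fell (median log2 fold change -0.95), and with siZIP7_2, 14 rose and 4 fell (median 1.56). CSF3, the granulocyte growth factor G-CSF, was at 2.29, 2.15 and 3.13 CPM in siNC. It was at 0.0728, 0.172 and 0.188 CPM in siZIP7_1, which stands for 2, 5 and 6 reads, and at 185.8, 170.9 and 175.7 CPM in siZIP7_2. Its siZIP7_2 to siZIP7_1 log2 difference of 10.19 (SE 0.13) was the highest of the 16761 genes. IL24, a cytokine of the IL-10 family, was at 3.74 to 5.11 CPM in siNC and fell with siZIP7_1 (log2 fold change -0.75, SE 0.13) and rose with siZIP7_2 (6.43, SE 0.078). IL16 rose with both siRNAs, from 0.0356 to 0.129 CPM in siNC, which is at or under the floor, to 0.364 to 0.533 CPM in siZIP7_1 and 2.37 to 2.54 CPM in siZIP7_2. CXCL11, a chemokine induced by interferon, was at 0.687 to 0.997 CPM in siNC. With siZIP7_1 it fell to 0 to 0.0728 CPM, which is at or under the floor. It also fell with siZIP7_2 (-0.74, SE 0.3, adjusted p = 0.0282), a call that was lost in 6 alternative settings. TNF, chosen after its values were seen, was at 0.0859 to 0.145 CPM in siNC, at 0 to 0.146 CPM in siZIP7_1 and at 17.2 to 21.8 CPM in siZIP7_2. In siNC and in siZIP7_1 its counts were at or under the floor in 2 of 3 libraries. IL18, also chosen after its values were seen, went against the 10 genes with each siRNA. It was at 13.1 to 16.3 CPM in siNC, 65.1 to 68.4 CPM in siZIP7_1 and 8.07 to 10.7 CPM in siZIP7_2. The log2 fold changes of IL18 were 2.16 (SE 0.075) with siZIP7_1 and -0.65 (SE 0.091) with siZIP7_2.

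The receptors of these cytokines were mixed. Of 10 listed, 6 were tested, and 4 rose and 1 fell with each siRNA (median log2 fold changes 0.55 with siZIP7_1 and 1.24 with siZIP7_2). IL6R, the IL-6-binding chain, rose from 4.43 ± 0.399 CPM (SD, n = 3) in siNC to 8.05 ± 0.510 CPM in siZIP7_1 and 64.5 ± 1.91 CPM in siZIP7_2 (log2 fold changes 0.86, SE 0.097, and 3.86, SE 0.078). IL6ST, which encodes gp130, rose with siZIP7_2 (1.43, SE 0.053) and stood at 0.06 (SE 0.052, adjusted p = 0.341) with siZIP7_1. LIFR rose with siZIP7_1 (0.83, SE 0.062), and was at 49.6 ± 3.58 CPM in siNC and 49.6 ± 2.26 CPM in siZIP7_2. IL1R1, the signalling IL-1 receptor, changed in the direction of its ligands, with 10.5 ± 0.993 CPM in siNC, 3.02 ± 0.358 CPM in siZIP7_1 and 23.9 ± 0.961 CPM in siZIP7_2 (-1.80, SE 0.11, and 1.18, SE 0.082). Its partner IL1RAP rose with each siRNA (1.13, SE 0.068, and 1.31, SE 0.068). IL11RA fell with siZIP7_2 (-0.475, SE 0.13), and its rise with siZIP7_1 (0.27, SE 0.12, adjusted p = 0.043) was lost in 6 alternative settings. The decoy receptor IL1R2 was at most 0.145 CPM, and the chemokine receptors CXCR1, CXCR2 and CCR6 were at most 0.0385 CPM in any library, under the floor.

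Genes that process or oppose IL-1 also went in mixed directions, with 4 of 11 higher and 4 lower with siZIP7_1, and 6 higher and 4 lower with siZIP7_2 (medians -0.15 and 0.23). CASP1, the protease that matures IL-1 beta, rose with siZIP7_1 (log2 fold change 0.51, SE 0.11) and fell with siZIP7_2 (-1.19, SE 0.13), opposite in sign to IL1B in each comparison. CASP4, an inflammatory caspase, rose with siZIP7_1 (1.60, SE 0.046) and siZIP7_2 (0.87, SE 0.046), and so did the sensor NLRP1 (0.70 and 0.865, both SE 0.058). CAPN2, a calpain of the class that cleaves the IL-1 alpha precursor, fell with siZIP7_1 (-1.79, SE 0.047). Its value with siZIP7_2 was -0.10 (SE 0.045, adjusted p = 0.0445), which lost its call in 11 alternative settings.

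Changes of the NF-kB subunits that passed the test lay between -0.86 and 1.05 on the log2 scale. With siZIP7_1 3 of 5 fell and none rose, and with siZIP7_2 4 of 5 rose and none fell (medians -0.20 and 0.55). RELB, a subunit of the noncanonical pathway, was at 35.4 ± 0.830 CPM in siNC, 19.4 ± 1.37 CPM in siZIP7_1 and 62.4 ± 1.82 CPM in siZIP7_2 (log2 fold changes -0.86, SE 0.062, and 0.82, SE 0.057). NFKB2 (-0.24, SE 0.049, and 1.05, SE 0.049) and NFKB1 (-0.20, SE 0.052, and 0.52, SE 0.051), which encode the p100 and p105 precursors, had the same signs. RELA, the canonical activating subunit, was at 137.9 to 143.3 CPM in siNC, 145.6 to 150.6 CPM in siZIP7_1 and 139.1 to 152.6 CPM in siZIP7_2, and passed the threshold in no comparison (adjusted p = 0.155 with siZIP7_1 and 0.622 with siZIP7_2). The mRNA level says nothing of how much of the protein is in the nucleus.

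Of 11 inhibitors and I-kappa-B family members, 10 rose and none fell with siZIP7_2, while 3 rose and 5 fell with siZIP7_1 (medians 1.05 and -0.14). TNFAIP3, the A20 deubiquitinase that ends NF-kB signalling, was at 14.3 ± 0.841 CPM in siNC, 44.6 ± 3.66 CPM in siZIP7_1 and 84.1 ± 3.32 CPM in siZIP7_2. It thus rose with each siRNA (log2 fold changes 1.64, SE 0.068, and 2.55, SE 0.066), as did CYLD, another deubiquitinase of the pathway (0.76 and 1.96, both SE 0.053). NFKBIA, which encodes I-kappa-B alpha, rose with siZIP7_2 (2.46, SE 0.055). With siZIP7_1 it was lower by a small step (-0.14, SE 0.058, adjusted p = 0.0391) that did not hold in 9 alternative settings. BCL3, a nuclear member of the family, fell with siZIP7_1 (-1.88, SE 0.11) and rose with siZIP7_2 (0.67, SE 0.088).

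Kinases and adaptors that activate NF-kB had 5 of 21 higher and 9 lower with siZIP7_1 and 11 higher and 8 lower with siZIP7_2. Their median log2 fold changes were -0.12 and 0.21. IRAK2, a kinase-like adaptor of IL-1 and Toll-like receptors, was at 24.7 ± 1.55 CPM in siNC, 16.1 ± 0.983 CPM in siZIP7_1 and 131.8 ± 3.83 CPM in siZIP7_2 (-0.625, SE 0.066, and 2.41, SE 0.057). TAB2 rose with each siRNA (0.30 and 0.64, both SE 0.05), and MAP3K7, which encodes the kinase TAK1, fell with each (-0.64 and -0.48, both SE 0.058). MYD88 rose with siZIP7_2 (0.70, SE 0.064), and its rise with siZIP7_1 (0.16, SE 0.066, adjusted p = 0.028) was lost in 4 alternative settings.

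Of 18 other NF-kB target genes tested (19 listed), 13 rose and 3 fell with siZIP7_2, and 4 rose and 10 fell with siZIP7_1 (medians 2.15 and -0.48). PTGS2, the inducible cyclooxygenase COX-2, was at 56.1, 53.1 and 61.1 CPM in siNC, at 14.9, 17.8 and 14.4 CPM in siZIP7_1 and at 1267, 1137 and 1163 CPM in siZIP7_2 (log2 fold changes -1.86, SE 0.073, and 4.39, SE 0.066). LCN2, an iron-carrier-binding protein of innate defence, rose with siZIP7_2 (5.19, SE 0.17), and its fall with siZIP7_1 (-1.22, SE 0.4, adjusted p = 0.00834) was lost without siNC replicate 1 (-0.975, adjusted p = 0.0589). BCL2A1, an anti-apoptotic gene, was at 0.498 to 0.581 CPM in siNC and 10.7 to 12.4 CPM in siZIP7_2. In siZIP7_1 it was at 0 to 0.0344 CPM, which is at or under the floor. VCAM1, an adhesion molecule, went the other way with siZIP7_2. It was at 0.516 to 0.819 CPM in siNC, 0 to 0.0314 CPM in siZIP7_1 and 0 to 0.132 CPM in siZIP7_2. Its counts were at or under the floor in 3 of 3 libraries of siZIP7_1 and in 2 of 3 of siZIP7_2.

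**Figure D5:**
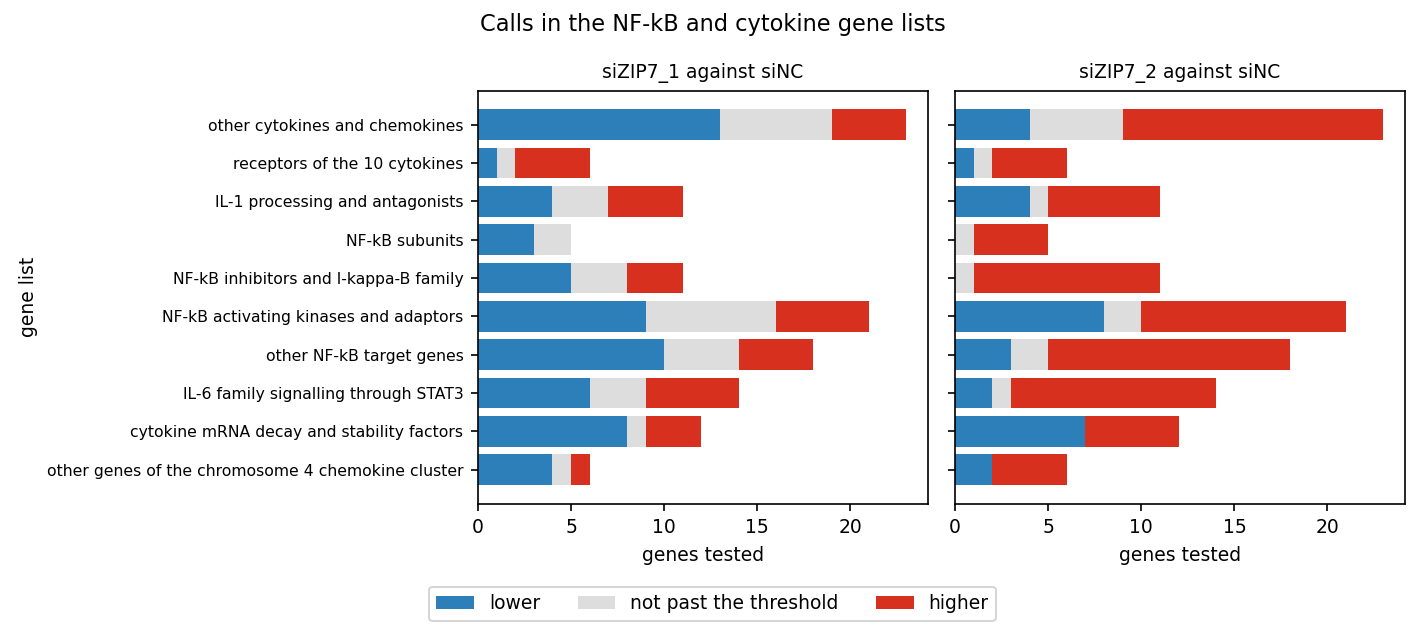
Number of tested genes (x axis) of each gene list (y axis) that were lower (blue), not past the threshold (grey) or higher (red) with siZIP7_1 (left) and siZIP7_2 (right), each against siNC. The inhibitors and I-kappa-B family had 10 of 11 higher with siZIP7_2, and the other cytokines had 13 of 23 lower with siZIP7_1.

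Genes of the STAT3 pathway that IL-6 family cytokines use had 5 of 14 higher and 6 lower with siZIP7_1, and 11 higher and 2 lower with siZIP7_2 (medians -0.015 and 0.46). JAK1, a kinase bound to gp130, fell with siZIP7_1 (log2 fold change -0.46, SE 0.048) and rose with siZIP7_2 (0.93, SE 0.047). SOCS3, the feedback inhibitor of gp130, rose with both (0.58 and 0.80, both SE 0.058), from 57.9 ± 2.82 CPM in siNC to 86.4 ± 6.82 CPM in siZIP7_1 and 100.5 ± 5.59 CPM in siZIP7_2. PIM1, a kinase gene induced by STAT3, rose with each, to 42.4 ± 1.26 and 41.8 ± 3.73 CPM against 19.8 ± 0.885 CPM in siNC (log2 difference between the siRNAs -0.02, SE 0.062, adjusted p = 0.757). SOCS2 fell with each (-0.365, SE 0.057, and -0.87, SE 0.06).

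Factors that control the decay of cytokine mRNAs had 3 of 12 higher and 8 lower with siZIP7_1, and 5 higher and 7 lower with siZIP7_2 (medians -0.26 and -0.16). ZC3H12A, the RNase regnase-1 that cuts IL6 mRNA, was at 23.2 ± 1.95 CPM in siNC, 11.4 ± 1.01 CPM in siZIP7_1 and 179.0 ± 14.2 CPM in siZIP7_2 (log2 fold changes -1.03, SE 0.081, and 2.94, SE 0.067). ZFP36, which encodes tristetraprolin, the binder of AU-rich elements, rose with both (1.04 and 1.375, both SE 0.06), and its relative ZFP36L2 fell with both (-0.94 and -0.88, both SE 0.055). ARID5A, known to stabilise IL6 mRNA, rose with siZIP7_2 (1.37, SE 0.07), and its fall with siZIP7_1 (-0.175, SE 0.077, adjusted p = 0.0439) was lost in 12 alternative settings.

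CXCL1, CXCL2, CXCL3 and CXCL8 lie in 1 cluster on chromosome 4, and their neighbours there did not all change with them. Of 11 neighbours listed, 6 were tested, of which 1 rose and 4 fell with siZIP7_1 and 4 rose and 2 fell with siZIP7_2 (medians -0.71 and 0.90). EREG, an EGF receptor ligand, rose with siZIP7_2 (log2 fold change 1.47, SE 0.056), and its fall with siZIP7_1 (-0.21, SE 0.059, adjusted p = 0.00246) was lost without siNC replicate 3 (-0.12, adjusted p = 0.0843). AREG, another such ligand, had the opposite signs, rising with siZIP7_1 (0.91, SE 0.061) and falling with siZIP7_2 (-0.42, SE 0.063). BTC fell with each (-2.30, SE 0.32, and -1.78, SE 0.3), from 0.945 to 1.67 CPM in siNC. CXCL5, a neutrophil chemokine, rose with siZIP7_2 (2.65, SE 0.32) and was at 0.0364 to 0.206 CPM in siZIP7_1 against 0.249 to 0.258 CPM in siNC (-1.28, SE 0.56, adjusted p = 0.043), a call lost in 8 alternative settings.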

How the data were processed

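RNA-seq counts from 9 libraries were used. The authors deposited raw counts of single Illumina reads per Ensembl gene, with no normalization. The submitters' processing notes name Trim Galore 0.4.1, FastQC 0.11.2, STAR, HTSeq 0.6.1 and DESeq2 1.16.1. The genome build, annotation, strand setting and read length were not given in the sources used here. The summary lines were left out. Reads ambiguous between genes, which were not counted, made up 2.66% to 2.91% of each library. Of 58395 identifiers 58275 were in GENCODE 29 (GRCh38), which gave symbols, positions and lengths.

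Differences were tested with edgeR 4.0.16 in R 4.3.3 (TMM, filterByExpr, quasi-likelihood test), in 1 fit to all libraries with 6 residual degrees of freedom, Benjamini-Hochberg adjustment over 16761 genes and a threshold of 0.05. SE is the log2 fold change over the square root of F. The steps were also run on simulated data with far fewer changed genes than these libraries show, so a change this broad was not tested. Alternatives were DESeq2 1.42.0, its size factors, upper-quartile scaling, no filter, at least 10 counts in every library, a replicate block, only the groups compared, and each library left out. The genes and the lists were chosen with earlier results of these data known. Of each list, up to 4 genes past the threshold with both siRNAs were named, by the largest change. All listed receptors, the markers (1 of which is not reported here) and the 5 genes most like CXCL8 were named as well.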

Additional observations from a re-analysis of the deposited data

Results flagged for a closer look

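The effects of the siZIP7 siRNAs differed for each of the 10 genes, as they did for 13187 of the 16761 genes tested. The higher group was siZIP7_2 for all 10, and for 38.1% of all genes. The test was that of the siZIP7_2 against siZIP7_1 contrast in edgeR's quasi-likelihood fit, which is the difference between their log2 fold changes against the shared siNC libraries. The log2 difference, siZIP7_2 minus siZIP7_1, was 6.10 for IL6, 6.31 for IL11 and 1.92 for LIF. It was 7.39 for IL1A and 9.71 for IL1B. Among the chemokines it was 8.14 for CXCL1, 6.45 for CXCL2, 5.45 for CXCL3, 7.72 for CXCL8 and 7.94 for CCL20. The adjusted p was at most 1.54e-23, for LIF. The 3 libraries of each siZIP7 group lay on opposite sides of the siNC libraries for all 10 genes. The share of all genes that do so was not counted. Taken singly, 36.5% of all genes tested lay wholly below siNC with siZIP7_1, and 38.9% lay wholly above it with siZIP7_2.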

How the results depend on the processing

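The 10 genes and SLC39A7 kept their direction and their side of the threshold in 525 of 525 values recomputed under the alternatives. With at least 10 counts in every library CCL20 was not tested, which left 9 of the genes in each comparison. Leaving out each library in turn gave 11291 to 11984 genes past the threshold with siZIP7_1, 12633 to 13360 with siZIP7_2 and 12840 to 13458 between them, and 10 of the 10 genes each time. The libraries were not treated as paired by replicate number. Same-numbered libraries had correlations of -0.124 to 0.131, and 3 of 9 were over 0.1. Their mean was 0.0235, against -0.012 for the other pairs of libraries. These values cannot exclude a pairing. With a replicate block 11927, 13080 and 13242 genes passed, and 10, 10 and 10 of the genes. Of 1295 values of the other named genes, 1229 kept both, 57 lost the call and 9 changed sign. LIFR with siZIP7_2, which was not past the threshold, was -0.052 with no low-count filter, -0.002 with the block and -0.063 to 0.058 with a library left out, and CAPN2 with siZIP7_2 was 0.006 with upper-quartile scaling. The cause was not tested. Depth limits the values of CCL20 in siZIP7_1, which rest on 4 to 13 reads.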
